A study of Homo sapiens with 14 samples.

Results

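Genes that serve DNA replication and cell division were described across 14 human neuroblastoma cell lines. The 42 genes were taken from a fixed list of replication and mitosis genes, and all 42 were found among the 20049 gene symbols of the deposited count table. They were split by the stage they serve into 16 S phase members and 26 mitotic members. The S phase members are the helicase subunits MCM2 to MCM7, PCNA, RRM1, RRM2, TYMS, CDC6, CDT1, GINS2, CDC45, E2F1 and E2F2. The mitotic members are MKI67, TOP2A, CCNB1, CCNB2, CCNA2, CDK1, AURKA, AURKB, BIRC5, PLK1, BUB1, BUB1B, MAD2L1, TTK, KIF11, KIF20A, KIF23, CENPA, CENPE, CENPF, TPX2, CDC20, CDC25C, UBE2C, NUSAP1 and FOXM1. FOXM1 was placed with the mitotic genes because these are its known targets.

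Neuroblastoma is a childhood tumour of the sympathetic nervous system, and the series concerns telomere damage, immunogenicity and antibodies against PD-L1. One RNA-seq library was made from each of GI-ME-N, SK-N-DZ, CLB-GA, SK-N-FI, NBL-S, IMR32, LS, SK-N-AS, NGP, SH-SY5Y, Lan-6, SK-N-BE(2)C, SK-N-SH and IMR5-75, grown in RPMI1640 or DMEM with serum, and the labels name no treatment. Each line is an established culture descended from 1 patient's tumour, and SH-SY5Y and IMR5-75 are known subclones of SK-N-SH and IMR32, which the labels do not state. With 1 library per line, no difference between lines has a replicate check.

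As background, a dividing cell licenses its replication origins in G1, when CDC6 and CDT1 load the MCM2 to MCM7 ring on DNA. The ring becomes an active helicase when CDC45 and the GINS complex join it. E2F transcription factors, released when cyclin-dependent kinases inactivate the retinoblastoma protein, switch on most of these S phase genes. The mitotic genes are switched on later by the MuvB complex together with B-MYB and FOXM1, and these act through a promoter element called the cell cycle genes homology region (CHR). In resting cells the DREAM complex, in which MuvB joins an E2F and a p130 protein, holds both sets down, and p21, the product of CDKN1A, favours that state. In neuroblastoma, amplified MYCN is known to drive cell cycle entry.

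The promoters show how the S phase and mitotic members differ in sequence. RefSeq promoters (GRCh38.p14, from 250 bases before to 50 bases after the annotated start) were matched for 14 of 16 S phase members and 20 of 26 mitotic members. The E2F motif was searched as TTTCCCGC, TTTGGCGC or TTTCGCGC, the CHR as TTTGAA and the CCAAT box as CCAAT, each on both strands. The E2F motif stood in 11 of 14 S phase promoters (78.6%) and 3 of 20 mitotic promoters (15%), against 3.95% of 13232 promoters of genes in the count table. The CHR letters stood in 1 S phase promoter (7.14%) and 13 mitotic promoters (65%), against 10.6% of all. A CCAAT box was present in 71.4% of S phase, 85% of mitotic and 35.9% of all promoters. The CHR and a CCAAT box occurred together in 12 mitotic promoters (60%), against 4.29% of all. A match is a description of the letters and does not show that a factor binds there.

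The following S phase promoters are shown over the 160 bases before the start because they carry the E2F motif and include members with a large spread across lines. They are MCM6 (chr2:135876444-135876603, minus strand), PCNA (chr20:5126623-5126782, minus strand), GINS2 (chr16:85688955-85689114, minus strand) and E2F2 (chr1:23531234-23531393, minus strand), written 5′ to 3′ with capitals marking the E2F motif (TTTGGCGC, or on the other strand GCGCGAAA, the reverse complement of TTTCGCGC, and GCGGGAAA, that of TTTCCCGC) and the CCAAT box (CCAAT, or ATTGG on the other strand). In MCM6 the E2F letters overlap on the 2 strands at both sites.
MCM6: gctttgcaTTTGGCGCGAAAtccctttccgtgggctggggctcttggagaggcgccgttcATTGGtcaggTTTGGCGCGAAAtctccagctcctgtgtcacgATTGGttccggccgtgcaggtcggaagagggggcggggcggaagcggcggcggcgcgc
PCNA: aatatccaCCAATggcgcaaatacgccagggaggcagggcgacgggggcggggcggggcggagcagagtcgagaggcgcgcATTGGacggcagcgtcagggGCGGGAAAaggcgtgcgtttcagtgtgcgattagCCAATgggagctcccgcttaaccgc
GINS2: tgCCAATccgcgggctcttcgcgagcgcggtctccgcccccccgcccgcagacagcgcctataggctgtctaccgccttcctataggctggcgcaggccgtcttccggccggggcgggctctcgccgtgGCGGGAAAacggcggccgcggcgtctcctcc
E2F2: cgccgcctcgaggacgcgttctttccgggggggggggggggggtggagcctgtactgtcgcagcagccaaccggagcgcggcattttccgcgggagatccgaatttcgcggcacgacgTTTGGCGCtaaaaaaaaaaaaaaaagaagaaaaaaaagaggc

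The mitotic promoters MKI67 (chr10:128126424-128126583, minus strand), PLK1 (chr16:23678729-23678888, plus strand), CCNB2 (chr15:59104986-59105145, plus strand) and CDC20 (chr1:43358821-43358980, plus strand) are shown over the same window. Capitals mark TTTGAA and the CCAAT box.
MKI67: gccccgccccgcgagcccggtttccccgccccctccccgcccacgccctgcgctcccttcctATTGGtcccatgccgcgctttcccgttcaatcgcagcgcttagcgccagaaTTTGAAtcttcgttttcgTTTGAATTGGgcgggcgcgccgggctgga
PLK1: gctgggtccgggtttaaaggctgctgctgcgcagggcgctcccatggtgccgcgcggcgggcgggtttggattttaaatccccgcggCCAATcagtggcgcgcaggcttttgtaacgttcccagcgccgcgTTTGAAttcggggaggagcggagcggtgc
CCNB2: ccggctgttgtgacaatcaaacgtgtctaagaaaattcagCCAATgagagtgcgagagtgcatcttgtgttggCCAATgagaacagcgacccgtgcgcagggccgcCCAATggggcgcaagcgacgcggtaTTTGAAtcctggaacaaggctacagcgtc
CDC20: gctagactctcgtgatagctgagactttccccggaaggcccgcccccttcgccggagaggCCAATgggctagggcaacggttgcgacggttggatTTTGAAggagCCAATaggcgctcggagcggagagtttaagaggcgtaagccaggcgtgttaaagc
The TTTGAA begins at -29 from the annotated start in MKI67, PLK1 and CCNB2, with a further copy in MKI67 at -47, and at -65 in CDC20. CCNB2 has 4 CCAAT boxes in the full promoter, of which 3 lie within the bases shown. PLK1 has 1 CCAAT box, at -73.

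Levels are given in CPM, which are counts divided by a library size that TMM factors adjust, and log2 values carry a prior count of 2. Libraries held 35856642 (Lan-6) to 58644013 (LS) counts, and the lowest count of any member in any library was 265, for CDC25C in SK-N-BE(2)C. All 42 members passed a filter on low counts, as did 13793 genes in all. In GI-ME-N and Lan-6 long transcripts were low (Spearman rho of level with transcript length -0.35 and -0.39 over 5619 stable genes), and in Lan-6 GC-rich transcripts were high (rho 0.63). In LS GC-rich transcripts were low (rho -0.34). A second scale, with the trend on GC content and transcript length removed from each library, is given beside results that it moves. Among markers of the tumour's cell states, the 8 mesenchymal markers summed to 29700 CPM in GI-ME-N, with SK-N-SH next at 12691 CPM and a median of 565 CPM. The 5 fibroblast markers summed to 11824 and 14214 CPM in these lines, with all 5 above 1 CPM, against a median of 46.2 CPM. All 5 were also above 1 CPM in SK-N-AS (2352 CPM), LS (652 CPM) and NGP (310 CPM). The 9 adrenergic markers were lowest in GI-ME-N (464 CPM, with 5 above 1 CPM) and SK-N-SH (318 CPM, with TH at 0). Leukocyte markers summed to 470 CPM in SK-N-AS, where 1 of 5 was above 1 CPM and CD3E was at 0, and to at most 44.4 CPM elsewhere. Endothelial markers summed to at most 10.1 CPM and Schwann markers to at most 19.3 CPM.

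The first question was how far the lines differ in the whole programme. Each score averages the log2 CPM of the S phase or the mitotic members, every gene being centred on its mean over the 14 lines, so that 1 unit is a 2-fold difference in the average member. GI-ME-N stood highest for both, with an S phase score of 0.84 and a mitotic score of 1.05. SK-N-DZ followed at 0.62 and 0.64, but with the GC and length trend removed its S phase score was the highest, at 0.67 against 0.55 in GI-ME-N. CLB-GA was next on the first scale, at 0.39 and 0.32. SK-N-FI, NBL-S and IMR32 were slightly above the mean in both scores, while LS and SK-N-AS were slightly below it in S phase genes and above it in mitotic genes, and NGP was close to the mean in both. At the low end, IMR5-75 had scores of -0.80 and -0.81, SK-N-SH -0.85 and -0.44, and SK-N-BE(2)C -0.49 and -0.80. In these bulk libraries, fewer dividing cells and less of these RNAs in each dividing cell cannot be told apart.

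**Figure D1:**
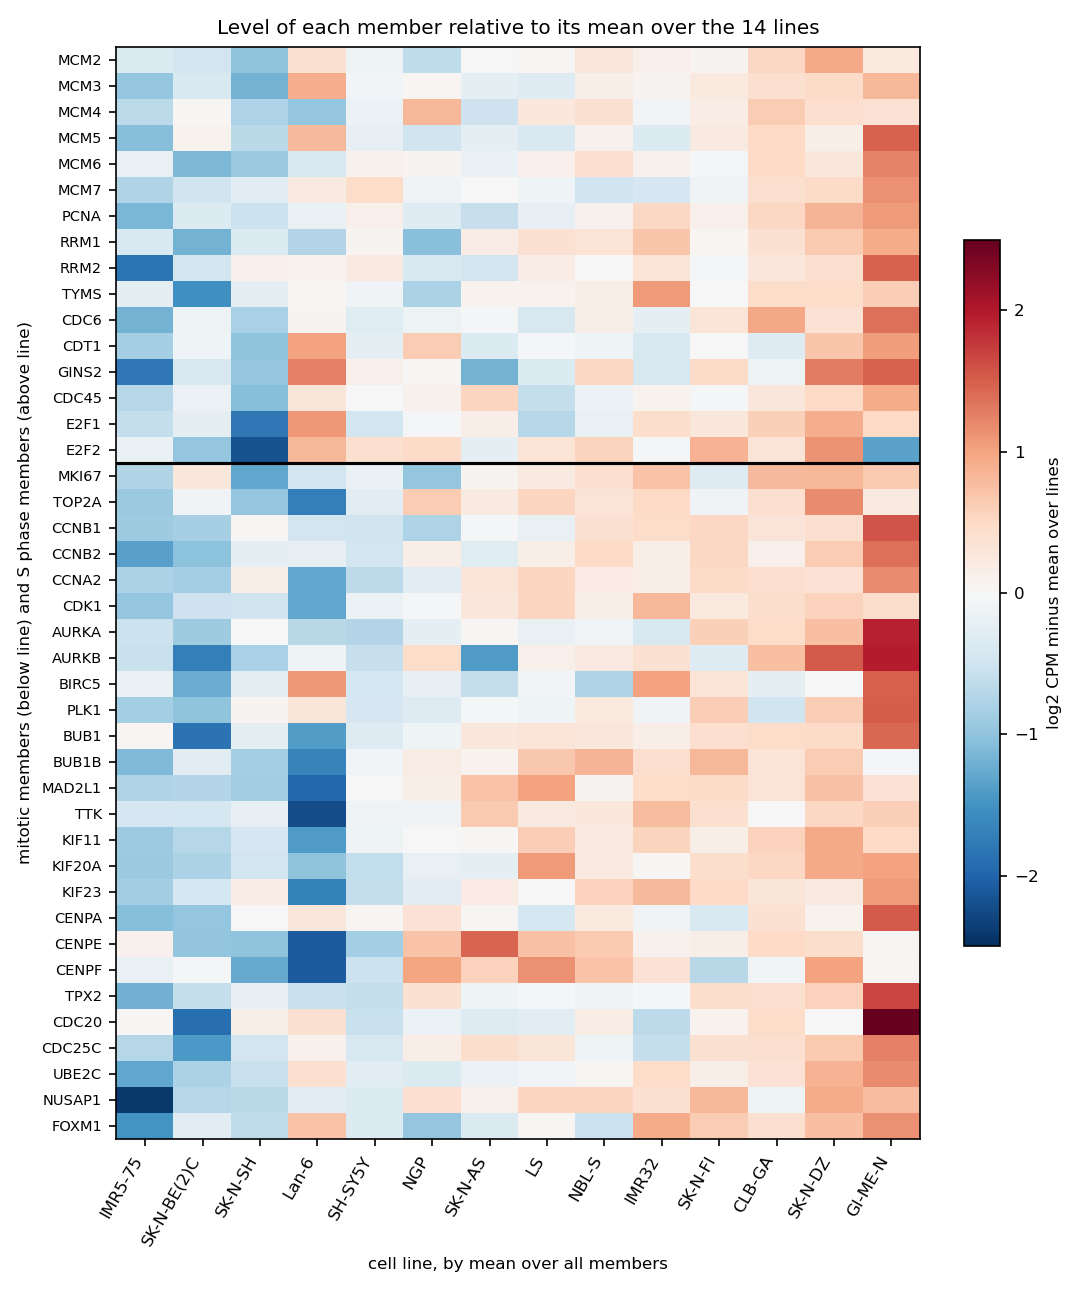
Log2 CPM of each of the 42 members minus its mean over the 14 lines (colour, in log2 units), with genes in rows, S phase members above the black line and mitotic members below it, and lines in columns ordered by their mean over all members. GI-ME-N at the right is red for most genes, with E2F2 blue, while Lan-6 is red for several S phase members and deep blue for CENPE, CENPF and TTK.

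GI-ME-N was the top line for 25 of 42 members, 10 S phase and 15 mitotic, against 16.4% of all 13793 genes that were highest in that line. With the GC and length trend removed it was 19 of 42, and the scores were 0.55 and 0.84. On that scale the share of all genes highest or lowest in a line was not computed, here and below. E2F2, TOP2A, BUB1B and CENPE were the members at or below their median in GI-ME-N, and with the trend removed TOP2A (623 CPM, median 550.1) and CENPE (98.2 CPM, median 88.2) were above it. E2F2 was at 14.3 CPM there, second lowest after SK-N-SH, against a median of 45.1 CPM, while E2F1 was above its median at 154 CPM. With the trend removed E2F1 (114.7 CPM, median 115.5) and MCM2 (171.3 CPM, median 171.9) were just below theirs. The summed mesenchymal and fibroblast markers were high in GI-ME-N and SK-N-SH, whose S phase scores were 0.84 and -0.85. The part of these markers in the levels of the members was not tested.

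SK-N-DZ was above the 14-line median for 16 of 16 S phase and 25 of 26 mitotic members, the exception being CDC20 at 63.8 CPM against a median of 64.3 CPM. It was the top line for 6 members, against 4.45% of all genes, and for 12 with the trend removed. Nearly every member was thus somewhat high, with fewer single genes far out than in GI-ME-N.

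Among the lines at the low end, IMR5-75 held the lowest level of 13 members, 6 S phase and 7 mitotic, against 7.85% of all genes that were lowest in it. It was above the median for 0 of 16 S phase members and for 2 of 26 mitotic members, BIRC5 and CDC20. SK-N-BE(2)C was lowest for 10 members (8.36% of all genes), among them MCM6, RRM1 and TYMS of the S phase set and AURKA, AURKB, PLK1 and BUB1 of the mitotic set. MKI67 went the other way in SK-N-BE(2)C, at 438 CPM against a median of 398 CPM. SK-N-SH was lowest for 7 members (6.53% of all genes), of which 6 were S phase members and 1, MKI67, was mitotic. The mitochondrial share of counts was highest in IMR5-75 (11.7%), SK-N-BE(2)C (10.9%) and Lan-6 (9.77%), the 3 lines with the lowest mitotic scores, and its part in their low values was not tested.

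The S phase and mitotic sets parted most in Lan-6, where the S phase score was 0.30 and the mitotic score -0.74. Lan-6 was above the median for 10 of 16 S phase members and 6 of 26 mitotic members. It was highest of all lines for MCM3 (500 CPM, median 278) and, before the trend was removed, for E2F1 (230 CPM, median 114). With the trend removed E2F1 was at 126 CPM in Lan-6, against a median of 116 CPM. It was lowest for 12 members, 11 of them mitotic, but it was also lowest for 20.3% of all genes. TTK, a spindle checkpoint kinase, was at 9.22 CPM in Lan-6 against a median of 47.1 CPM, and MAD2L1, which holds back anaphase, at 29.3 against 135 CPM. After removal of the trend they were at 15.2 and 53.0 CPM in Lan-6, the lowest of the 14 lines for both.

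Part of that gap went with transcript composition. As transcripts, the mitotic members had a median GC content of 44.6%, the S phase members 50.6% and all detected genes 49.1%. Removing the Lan-6 trend moved the median S phase member down by 0.22 and the median mitotic member up by 0.28 on the log2 scale, with CENPE moving the most. The S phase score minus the mitotic score was then 0.70 in place of 1.04, and Lan-6 was lowest for 7 members, all 7 mitotic. It remained the largest difference in that direction of the 14 lines on both scales. SH-SY5Y was next at 0.38 on both scales. The largest difference in the other direction was in SK-N-SH, at -0.42 and, with the trend removed, -0.41.

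**Figure D2:**
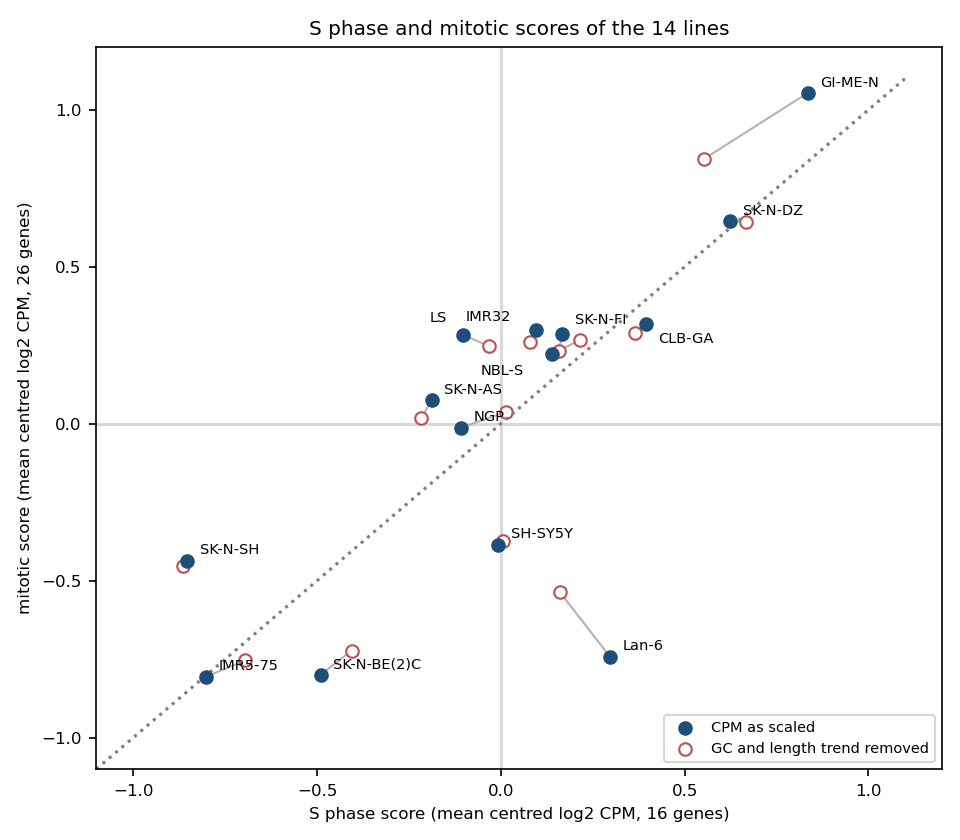
Mitotic score against S phase score of the 14 lines, each a mean centred log2 CPM, as scaled (filled) and with the GC and length trend removed (open), joined by a grey line. On the dotted line the scores are equal, and Lan-6 (0.30 and -0.74) lies farthest from it, closer once the trend is removed, while GI-ME-N and SK-N-DZ are highest.

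The spread of the members across lines was close to that of other genes. The median SD of log2 CPM over the 14 lines was 0.63 for S phase members, 0.73 for mitotic members and 0.72 for all detected genes. With the trend removed these were 0.55, 0.62 and 0.65. The most even members were MCM2 and MCM7 of the S phase set (SD 0.50 for both) and CDK1 and CENPA of the mitotic set (SD 0.62 and 0.63). The widest were AURKB (SD 1.02) and GINS2 (SD 0.95).

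Of the licensing and helicase genes, MCM2 (chromosome 3, 127598223 to 127622436) ran from 87.7 CPM in SK-N-SH through a median of 183 CPM to 339 CPM in SK-N-DZ. MCM7, the helicase subunit with the highest median, ran from 224 CPM in IMR5-75 to 831 CPM in GI-ME-N, and the next line, SK-N-DZ, had 528 CPM. The MCM proteins work as a ring with 1 copy of each subunit, but their RNAs were not level. Per kilobase of transcript, MCM7 was the highest of the 6 in 12 of 14 lines and MCM3 in Lan-6 and NBL-S. The highest subunit exceeded the lowest by 2.61-fold in NBL-S to 6.13-fold in SH-SY5Y. MCM4 broke from MCM3 in Lan-6, where it was at its lowest (124 CPM, median 264), and peaked in NGP at 434 CPM. Its lowest line without the trend was SK-N-SH, at 140 CPM.

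GINS2 (chromosome 16, 85676198 to 85690073), a subunit of the GINS complex, had a median of 38.1 CPM, with 11.4 CPM in IMR5-75 and 17.4 CPM in SK-N-AS at the low end. GI-ME-N (109 CPM), SK-N-DZ (96.1 CPM) and Lan-6 (94.3 CPM) stood apart at the top, the next line being NBL-S at 56.0 CPM. Once the trend was removed, they were at 86.6, 97.7 and 92.1 CPM, so SK-N-DZ was highest. CDC45, its partner in the active helicase, had a narrower range, with SK-N-SH lowest at 25.7 CPM and GI-ME-N highest at 103 CPM. The loading factor CDC6 ran from 32.7 CPM in IMR5-75 to 193 CPM in GI-ME-N, while CDT1, the other loader, was lowest in SK-N-SH (20.3 CPM) and highest in GI-ME-N (83.9 CPM). On the scale without the trend, both CDC45 (78.7 CPM) and CDT1 (72.6 CPM) were highest in SK-N-DZ, and CDT1 in Lan-6 was at 45.6 in place of 81.7 CPM.

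PCNA (chromosome 20, 5114953 to 5126626), the sliding clamp of the replication polymerases, had a median of 201 CPM, a low of 92.6 CPM in IMR5-75 and a high of 425 CPM in GI-ME-N. On the scale without the trend, PCNA was highest in SK-N-DZ at 383 CPM, with GI-ME-N at 310 CPM. RRM2 (chromosome 2, 10120698 to 10131419), the regulated subunit of the ribonucleotide reductase that makes deoxynucleotides, ran from 52.7 CPM in IMR5-75 to 522 CPM in GI-ME-N, a 9.91-fold range around a median of 202 CPM. The other 12 lines lay between 137 and 248 CPM, so RRM2 had 1 line far below and 1 line far above the rest. With the trend removed IMR5-75 was at 53.6 CPM and GI-ME-N at 474 CPM, and Lan-6 came closer to the top at 289 CPM. RRM1, the large subunit of the same enzyme, was lowest in SK-N-BE(2)C at 72.7 CPM and NGP at 79.3 CPM. TYMS, the thymidylate synthase, peaked in IMR32 at 345 CPM and was lowest in SK-N-BE(2)C at 57.0 CPM.

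E2F1 and E2F2, activating members of the E2F family, did not share 1 order. E2F1 (chromosome 20, 33675683 to 33686404) had a median of 114 CPM, with SK-N-SH lowest at 31.2 CPM and Lan-6 highest at 230 CPM. Once the trend was removed, SK-N-DZ was highest for E2F1 at 225 CPM, and Lan-6 was at 126 CPM. E2F2 (chromosome 1, 23506430 to 23531220) had a median of 45.1 CPM, with SK-N-SH at 7.93 CPM and SK-N-DZ at 77.9 CPM as its ends. SK-N-SH was thus lowest for both, while GI-ME-N was low for E2F2 and, with the trend removed, near the median for E2F1 (114.7 against 115.5 CPM). The ratio of E2F1 to E2F2 counts therefore ranged from 1.45 in LS to 10.8 in GI-ME-N, without a correction for transcript length, which is the same in every line.

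**Figure D3:**
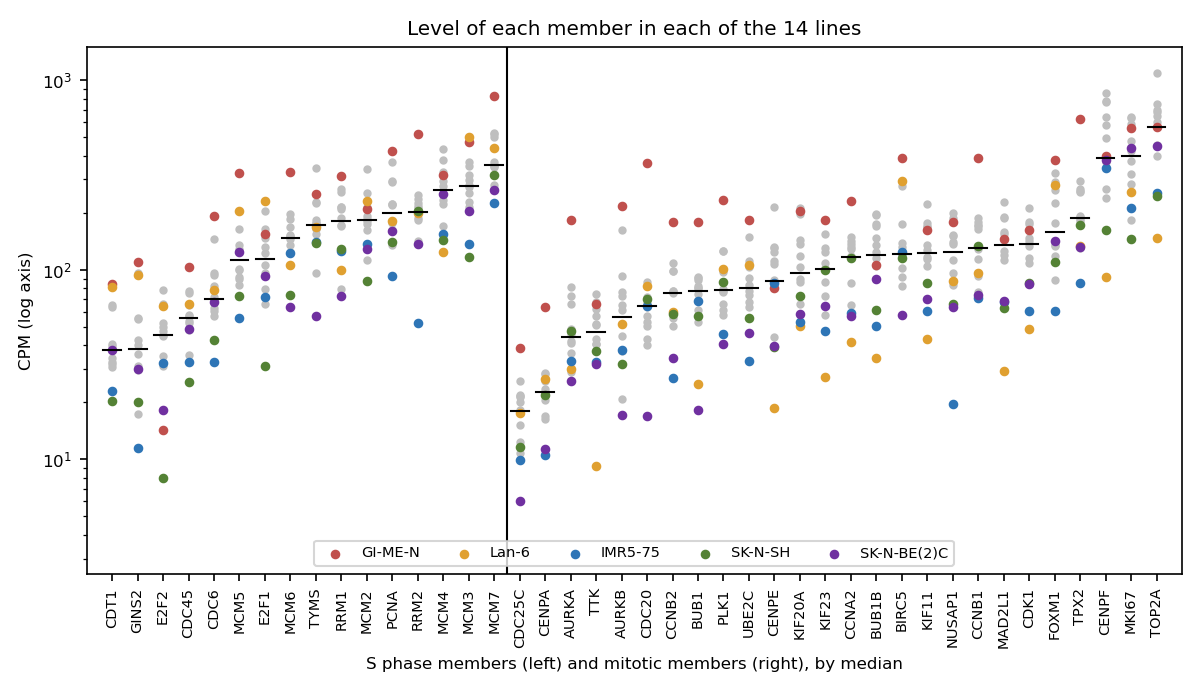
CPM of each member (log axis) in each of the 14 lines, S phase members left and mitotic members right of the vertical line, each set ordered by its median (black bar), with 5 lines coloured and the other 9 in grey. GI-ME-N lies at the top for most genes, with CDC20 at 367 CPM farthest above the next line, and Lan-6 at the bottom for TTK and CENPE.

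Among the proliferation markers, MKI67 (chromosome 10, 128096659 to 128126385), which encodes the Ki-67 antigen, ran from 145 CPM in SK-N-SH through a median of 398 CPM to 638 CPM in SK-N-DZ. CLB-GA (630 CPM), IMR32 (588 CPM) and GI-ME-N (562 CPM) were close behind, and with the trend removed GI-ME-N was highest at 616 CPM. TOP2A (chromosome 17, 40388516 to 40417950), the topoisomerase that untangles sister chromatids, had a median of 565 CPM and a high of 1090 CPM in SK-N-DZ. Its low of 148 CPM in Lan-6 depended on the GC and length trend, since without the trend the lowest line was SK-N-SH at 246 CPM. FOXM1 (chromosome 12, 2857681 to 2877155) had a median of 159 CPM, from 61.0 CPM in IMR5-75 to 378 CPM in GI-ME-N, and with the trend removed IMR32 was highest at 325 CPM.

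Of the genes for CDK1 and its cyclins, CDK1 (chromosome 10, 60778331 to 60794852), the kinase that starts mitosis, ran from 48.6 CPM in Lan-6 to 212 CPM in IMR32 with a median of 137 CPM. The lowest CDK1 without the trend was 62.8 CPM, in IMR5-75, and Lan-6 was at 69.3 CPM. CCNB1 (chromosome 5, 69167010 to 69178245), its cyclin B partner, ran from 70.8 CPM in IMR5-75 to 389 CPM in GI-ME-N with a median of 131 CPM. GI-ME-N exceeded the next line, SK-N-FI, by 2.08-fold for CCNB1, and with the trend removed they were at 319 and 176 CPM. CDK1 in GI-ME-N, at 163 CPM, was above its median but not the highest. CCNB2 and CCNA2, the other mitotic cyclins, were also highest in GI-ME-N at 179 and 232 CPM. CDC25C, a phosphatase that activates CDK1, had the lowest median of all members, 18.0 CPM.

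Of the mitotic kinases and their partners, AURKB (chromosome 17, 8204733 to 8210600), the kinase of the chromosomal passenger complex, had a median of 56.5 CPM, with 17.1 CPM in SK-N-BE(2)C and 20.9 CPM in SK-N-AS at the bottom. GI-ME-N (219 CPM) and SK-N-DZ (162 CPM) were the top lines, a 12.8-fold range. Once the trend was removed, SK-N-DZ was highest at 175 CPM and GI-ME-N was at 143 CPM, and the range was 8.79-fold. BIRC5 (survivin), a subunit of the same complex, had its second highest level in Lan-6 at 293 CPM, where AURKB was at 51.9 CPM. BIRC5 and AURKB were at 248.8 and 27.7 CPM in Lan-6 with the trend removed. BIRC5 was then higher in both GI-ME-N (301.7 CPM) and IMR32 (276.9 CPM). AURKA, the spindle pole kinase, and TPX2, its activator, were both highest in GI-ME-N, at 183 and 625 CPM, each over 2-fold above the next line. Once the trend was removed, they were at 146 and 546 CPM there. SK-N-DZ, at 82.9 and 293 CPM, was next and less than 2-fold below. PLK1, a kinase acting throughout mitosis, ran from 40.8 CPM in SK-N-BE(2)C to 234 CPM in GI-ME-N.

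CDC20 (chromosome 1, 43358955 to 43363203), the activator of the anaphase-promoting complex, had the widest fold range of all members. SK-N-BE(2)C had 17.0 CPM, the median was 64.3 CPM and GI-ME-N reached 367 CPM, a 21.6-fold range. The other 12 lines lay between 40.1 CPM in IMR32 and 86.7 CPM in CLB-GA, so both ends were single lines. After the trend was removed, the ends were 255 and 19.4 CPM in the same lines. UBE2C, the ubiquitin-conjugating enzyme of the same complex, had a 5.56-fold range, from 33.0 CPM in IMR5-75 to 183 CPM in GI-ME-N. After the trend was removed, UBE2C was highest in SK-N-DZ at 161 CPM, with GI-ME-N at 115 CPM.

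Of the spindle checkpoint genes, BUB1 (chromosome 2, 110637698 to 110678114), a kinetochore kinase, was lowest in SK-N-BE(2)C (18.2 CPM) and Lan-6 (24.9 CPM), with a median of 77.4 CPM and a high of 179 CPM in GI-ME-N. MAD2L1 (chromosome 4, 120055608 to 120067074) ran from 29.3 CPM in Lan-6 to 227 CPM in LS. BUB1B, which encodes BubR1, was highest in NBL-S at 198 CPM, with SK-N-FI at 195 CPM. These 3 checkpoint genes were thus each highest in a different line.

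The kinetochore genes CENPE and CENPF are the longest of the set beside MKI67 and AT-rich, and their order differed from that of the smaller genes. CENPE (chromosome 4, 103105806 to 103198409), a kinetochore motor, ran from 18.7 CPM in Lan-6 through a median of 86.9 CPM to 216 CPM in SK-N-AS. CENPF (chromosome 1, 214603195 to 214664588) ran from 92.2 CPM in Lan-6 through a median of 390 CPM to 857 CPM in LS. With the trend removed the lowest CENPE was 36.5 CPM, in SK-N-BE(2)C, and CENPF in Lan-6 was 172 CPM, still the lowest. LS was then still highest for CENPF, at 724 CPM, but close to NGP at 714 CPM and SK-N-DZ at 704 CPM. CENPA, the histone variant that marks centromeres, was among the most even mitotic members apart from GI-ME-N, which at 63.7 CPM exceeded the next line by 2.22-fold. On the scale without the trend, CENPA was at 45.5 CPM in GI-ME-N, with CLB-GA next at 30.5 CPM. NUSAP1 (chromosome 15, 41332694 to 41381050), a microtubule-binding spindle protein, was set apart by 1 low line, IMR5-75 at 19.6 CPM. The next lowest line had 63.9 CPM, the median was 125 CPM and the highest was 200 CPM in SK-N-DZ. Of the motors, KIF11, which separates the spindle poles, and KIF23, which acts in cytokinesis, were lowest in Lan-6 at 43.2 and 27.3 CPM, although with the trend removed IMR5-75 was lowest for KIF11. KIF20A, a cytokinesis motor, was highest in LS at 211 CPM.

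The members were next compared with each other over 12 lines, leaving out the subclones. These correlations are descriptions, since the points share the libraries and their scaling. The median Pearson r of log2 CPM was 0.59 over the 120 pairs within the S phase set and 0.58 over the 325 pairs within the mitotic set. It was 0.46 over the 416 pairs between the sets, against 0.00 over all pairs of detected genes. It was positive for 117, 310 and 368 of these pairs. With the trend removed the medians were 0.50, 0.60 and 0.44. The S phase and mitotic scores had r = 0.71 and rho = 0.75 over the 12 lines, and r = 0.53 without SK-N-SH and GI-ME-N, the lines farthest from the median S phase score.

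Single members differed in how closely they followed their own set. Here r is with the mean of the other members of the set. BUB1 (0.94), MCM3 (0.91) and KIF20A (0.90) followed it most closely. MCM4 (0.35), BIRC5 (0.35), E2F2 (0.37) and FOXM1 (0.43) followed it least. FOXM1 was closer to the other set, with r = 0.74 to the S phase score, and was so with the trend removed, at 0.68 against 0.48 to the mitotic genes. RRM1, TYMS, MCM4, MKI67 and BIRC5 were also closer to the other set on both scales. RRM1 had 0.86 to the mitotic score against 0.53 to the S phase genes, and 0.81 against 0.57 with the trend removed. For UBE2C (0.93 to the S phase score, 0.73 to the mitotic genes) and MCM6 (0.90 to the mitotic score, 0.81 to the S phase genes) the order turned with the trend removed, to 0.84 against 0.87 and 0.81 against 0.84. These genes were picked after their values were seen.

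The design has no groups, so the tests available are slopes across the 12 lines. Each slope is the log2 difference per SD of the log2 level of 1 gene, from edgeR's quasi-likelihood test fitted over all genes and adjusted by Benjamini-Hochberg. The first was on MYCN, whose level went from 0.384 CPM (SK-N-SH) up to 2245 CPM (SK-N-BE(2)C). Of the 42 members, 0 rose and 0 fell with MYCN at an adjusted p under 0.05, where 1.11% of 17781 genes rose and 2.5% fell. The median slope was -0.05 for the S phase members and -0.06 for the mitotic members, against -0.01 over all genes tested, and 5 of 16 and 10 of 26 slopes were positive. With the GC and length trend removed from the tested genes but not from MYCN, 10 of 16 and 14 of 26 were positive. The medians were then 0.05 and 0.04, against 0.05 over all genes. The signs rested on single lines. Without GI-ME-N the medians were 0.08 and 0.10, with 13 of 16 and 17 of 26 positive, and without SK-N-SH they were -0.20 and -0.16.

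CDC20 was the only member with an unadjusted p under 0.05 on MYCN, where 4458 of 17781 genes had one. Its slope was -0.75 (SE 0.26, edgeR adjusted p = 0.103). The slope was -0.26 without GI-ME-N, adjusted p = 0.472. Leaving out any other line gave slopes from -0.63 (without SK-N-BE(2)C) to -0.86 (without SK-N-AS, edgeR adjusted p = 0.0423). DESeq2, which called 3183 genes against 641 by edgeR, called CDC20 at adjusted p = 0.0296 and none of the other members. Limma on the deposited log2 values called 341 genes and 0 members. MCM2 had a slope of 0.09 (95% interval -0.28 to 0.46) and TOP2A one of 0.36 (95% interval -0.05 to 0.77). MKI67 and CDK1 had intervals that included 0 as well, as the plot of slopes shows.

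The second slope was on CDKN1A, whose level went from 8.91 CPM (LS) up to 981 CPM (SK-N-SH). By edgeR, 0 members were called in either direction, as were 0% of 18214 genes rising and 0% falling, although 3182 genes had an unadjusted p under 0.05. DESeq2 called 1028 genes and 0 members, and limma on the deposited log2 values called 0 genes. The median slope was 0.16 for the S phase members, 13 of 16 being positive, and 0.06 for the mitotic members, 14 of 26 being positive, against 0.02 and 9365 of 18214 over all genes. With the trend removed from the tested genes but not from CDKN1A, the medians were 0.05 and -0.01, with 10 of 16 and 12 of 26 positive. At an unadjusted p under 0.05 stood BIRC5 with a slope of 0.53 (SE 0.20), CENPE with -0.57 (SE 0.25) and CENPF with -0.64 (SE 0.23), with edgeR adjusted p of 0.224, 0.272 and 0.210. Lan-6, in which the GC and length trend lowered CENPE and CENPF, had the second highest CDKN1A, 623 CPM. Without Lan-6 the slopes of CENPE and CENPF were -0.37 and -0.46. Without GI-ME-N and Lan-6, 0 members had an unadjusted p under 0.05, and 6 of 16 S phase slopes were positive. Without SK-N-SH, 7 members had one. The matching counts over all genes were not computed for these sets of lines.

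The third slope was on TERT, the catalytic subunit of telomerase, with 0 counts in SK-N-FI and 68.5 CPM in GI-ME-N. By edgeR, 0 members were called, and 0% of 18214 genes rose and 0% fell, with 1282 genes at an unadjusted p under 0.05. DESeq2 called 355 genes and 0 members, and limma on the deposited log2 values 0 genes. The slopes were positive for 13 of 16 S phase and 25 of 26 mitotic members, with medians of 0.13 and 0.25, against 9602 of 18214 genes and a median of 0.02. AURKB had the largest, 0.58 (SE 0.24, edgeR adjusted p = 0.687), followed at an unadjusted p under 0.05 by CENPA and MCM6, both at 0.35. These slopes drew on GI-ME-N, the line highest in TERT and in most members. Without it 9 and 20 slopes were positive, the medians were 0.0026 and 0.13, and 0 members had an unadjusted p under 0.05. Without SK-N-FI, the line with 0 counts, 13 members had one, in place of 3, and the mitotic median was 0.41. How many of all genes reached that p without these lines was not computed, so these counts have no background. Without GI-ME-N and Lan-6 the mitotic median was 0.02, with 14 of 26 positive.

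**Figure D4:**
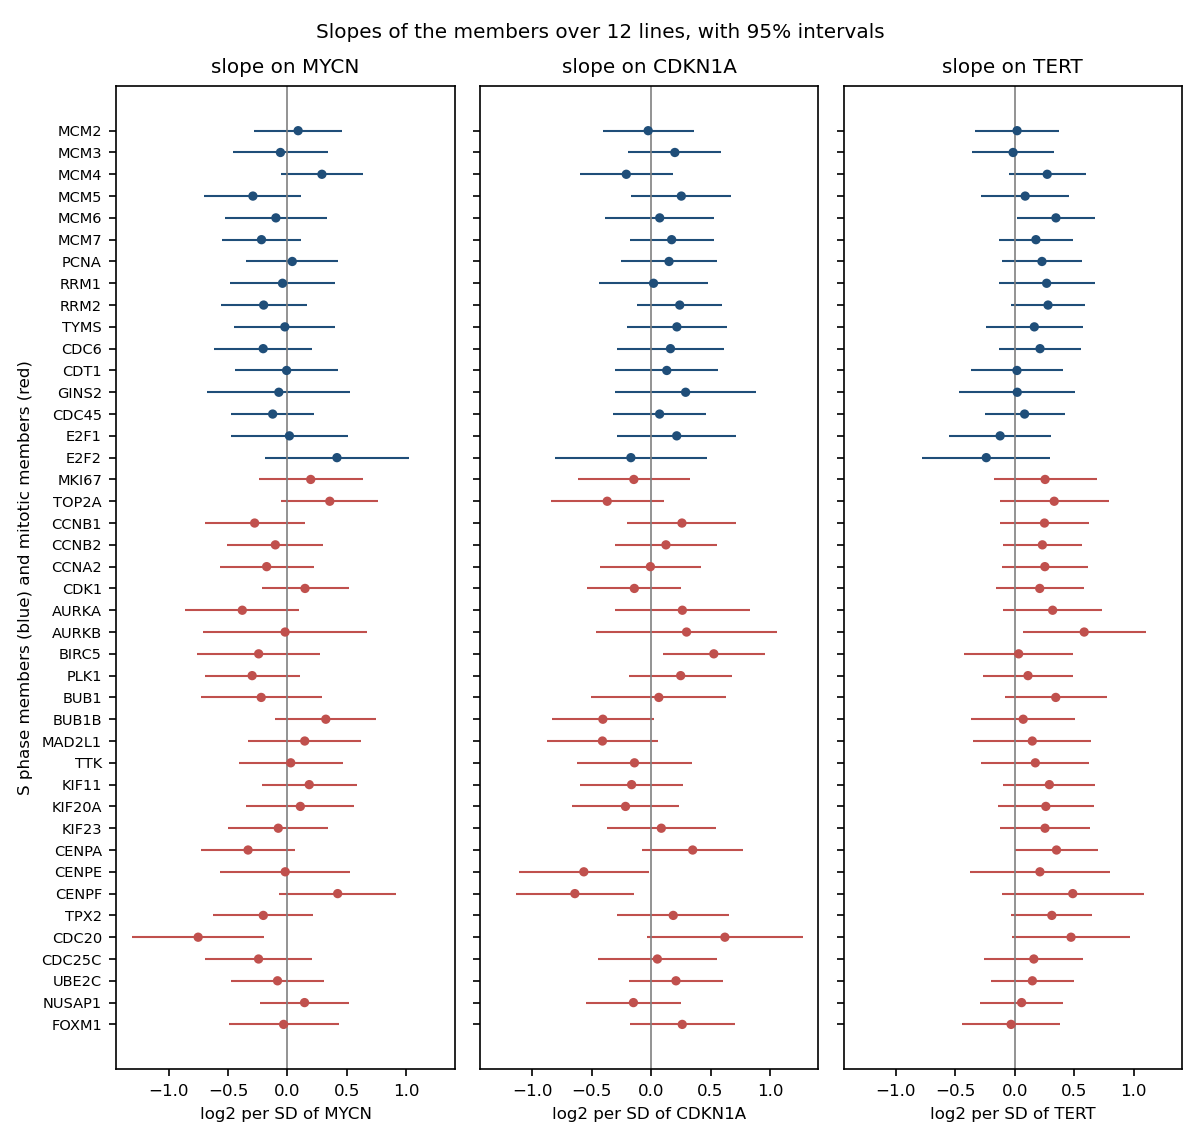
Slope of each member (log2 per SD) on the level of MYCN, CDKN1A and TERT over 12 lines, S phase members in blue and mitotic members in red, with 95% intervals from edgeR's fit as bars. Most intervals cross 0, CDC20 on MYCN (-0.75) lies farthest below it, and in the TERT panel 25 of 26 mitotic points lie above it.

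The wider programme was looked at through lists of other genes of the same processes. Of 36 other replication genes, 41 other mitosis genes and 28 regulators of E2F and DREAM (26 or 27 of them tested), 0 were called by edgeR in each of the 3 slopes. On MYCN, 5 of the 36 other replication genes had an unadjusted p under 0.05, where 4458 of 17781 genes did, among them TK1, a thymidine kinase, with a slope of -0.97 (SE 0.33, edgeR adjusted p = 0.104). On CDKN1A, 7 of 26 regulators did, where 3182 of 18214 genes did, among them CCND3, a D-type cyclin, with 0.66 (SE 0.19), and TFDP2, an E2F partner, with -0.64 (SE 0.19), both at edgeR adjusted p = 0.197. On TERT, UHRF1, which keeps DNA methylation in step with replication, had 0.58 (SE 0.15, edgeR adjusted p = 0.452). These genes were named after their values were seen.

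The subclones were set beside their parent lines, with 1 library each and no test. IMR5-75 was lower than IMR32 for 16 of 16 S phase members and 24 of 26 mitotic members. It was more than 2-fold lower for 7 S phase and 15 mitotic members and more than 2-fold higher for 0, where 12.8% of all detected genes were lower and 13.5% higher by that much. The median log2 ratio was -0.88 for S phase and -1.18 for mitotic members, against -0.03 for all genes. NUSAP1 differed most, at 19.6 CPM against 137 CPM, followed by FOXM1 at 61.0 against 326 CPM and RRM2 at 52.7 against 236 CPM. CDC20 was higher in IMR5-75, at 64.8 against 40.1 CPM, and CENPE was level at 85.2 and 84.5 CPM. CDKN1A was at 127 CPM in IMR5-75 and 306 CPM in IMR32, and its part in the difference was not tested. The mitochondrial share of counts was 11.7% in IMR5-75 and 4.64% in IMR32, and its part in the difference was not tested.

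SH-SY5Y and SK-N-SH gave another pattern. All 16 S phase members were higher in SH-SY5Y, with a median log2 ratio of 0.74, and 6 of them were more than 2-fold higher, against 15% of all detected genes. Of the mitotic members 15 of 26 were higher, with a median log2 ratio of 0.10, and 1, MKI67, was more than 2-fold higher (319 against 145 CPM). No member of either set was more than 2-fold lower, against 15.6% of all genes. E2F2 differed most, at 47.5 CPM in SH-SY5Y and 7.93 CPM in SK-N-SH, followed by E2F1 at 78.9 and 31.2 CPM. MCM3, MCM6, GINS2 and CDC45 were the other 4 past 2-fold. CCNA2 went the other way at 65.4 against 115 CPM, and so did KIF23 at 57.8 against 99.7 CPM. SH-SY5Y had 22.7 CPM of CDKN1A against 981 CPM in SK-N-SH. Both groups of values come from lines that also differ in cell state, with mesenchymal markers summing to 517 CPM and 12691 CPM in that order, and the part of cell state was not tested.

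**Figure D5:**
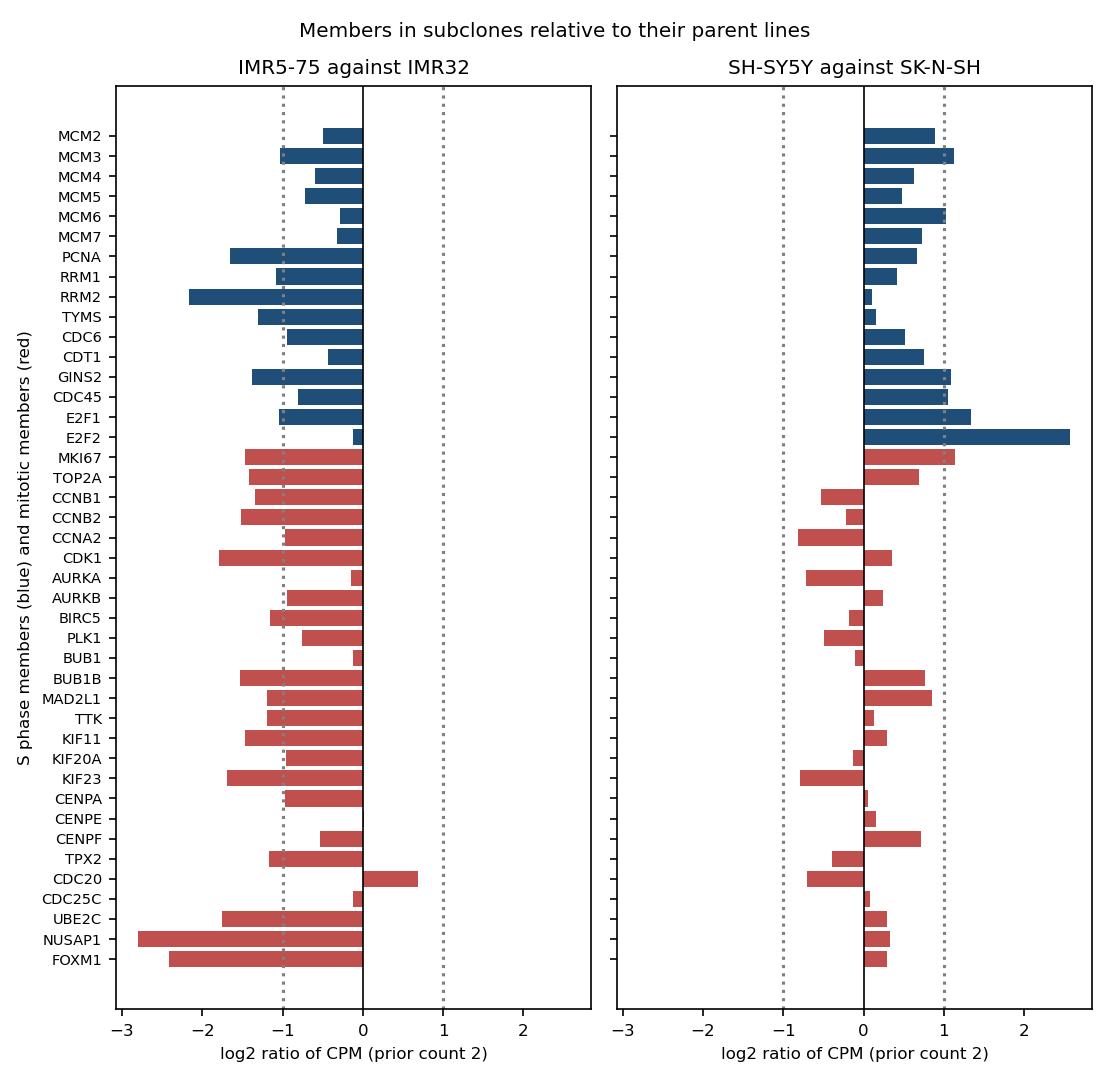
Log2 ratio of CPM (prior count 2) of each member in the subclone over its parent line, S phase members in blue and mitotic members in red, with dotted lines at 2-fold in either direction and 1 library per line. IMR5-75 is lower than IMR32 for nearly all members, down to NUSAP1, and SH-SY5Y is higher than SK-N-SH for 16 of 16 S phase members with the mitotic members on both sides of 0.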

How the data were processed

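Per the labels' protocols, TruSeq libraries were prepared from TRIzol-extracted RNA of 14 neuroblastoma lines. GRCh38, kallisto 0.44.0 and DESeq2 1.48.2 appear in the submitters' processing notes, without their roles. For annotation, strand setting and filters, the details were not given in the sources used here. Whole numbers fill the deposited gene table, read in the unit of expected counts (estimated counts rounded by the authors), a unit that rests on the values and the named tool. The authors' deposited log2 values, whose settings are not stated, served as an alternative scale only.

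CPM and log2 CPM (prior count 2) were computed with TMM over all 20049 genes in edgeR 4.0.16 (R 4.3.3). Slopes used edgeR's quasi-likelihood test over 12 lines, without IMR5-75 and SH-SY5Y, on genes passing filterByExpr, with an adjusted p threshold of 0.05. As all lines form 1 group without replicates, the p-values reflect how lines vary, technical differences between single libraries included. The GC and length trend was removed per library with splines (4 df) fitted on 5619 stable genes (a mean of at least 5 CPM and an SD at or under the median), using GENCODE 29 principal transcripts, which matched 98.8% of symbols. For slopes with the trend removed, it was taken from the tested genes and not from the gene the slope was on. Positions are from GENCODE 29 on GRCh38. Scripts were tested on simulated data. No pair of the 91 pairs of libraries agreed within sampling noise. Intervals cover the model's error only, and single levels carry counting error.

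Named genes were MKI67, TOP2A, CCNB1, CDK1, FOXM1, PCNA, MCM2, RRM2 and E2F1, the 4 S phase and 6 mitotic members with the largest SD, the 2 of each with the smallest, any called gene and the 3 genes used for slopes. Other members and genes were named after their values were seen. The members, lists and tests were chosen with earlier results of these data known. Alternatives were DESeq2 size factors, DESeq2 1.42.0, no filter, limma 3.58.1 fitted to the authors' log2 values, other sets of lines, a prior count of 0.5, z-scores, and scores without E2F1, E2F2 and FOXM1.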

Additional observations from a re-analysis of the deposited data

How the results depend on the processing

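Of the alternative values of the counts of called members, scores, pair counts and median correlations, 394 stayed within their margin and 7 moved. Of those of the single slopes, slope summaries, unadjusted counts and top and bottom line counts, 429 did, 48 moved and 3 passed the threshold. The margin was the SD over lines for a score, the SD over members or pairs for a median slope or correlation, and a fixed fold for a count. A single slope had to keep its sign and its side of the threshold. These margins are wide, and the Lan-6 score difference of 1.04, which became 0.70, counted as within them. For CDKN1A and TERT edgeR called 0 genes in all, so a steady 0 members there says little. The number of members called with MYCN was 0 by edgeR, 1 by DESeq2 (CDC20) and 2 without the 2 lines farthest in MYCN level, SK-N-SH and SK-N-AS (CDC20, slope -0.93, adjusted p = 0.0176, and MCM5, slope -0.53, adjusted p = 0.0206). Leaving out each line in turn gave 0 to 1 called with MYCN, the 1 without SK-N-AS, and 0 with CDKN1A and with TERT. The S phase score of GI-ME-N was 1.36 as a mean of z-scores. MKI67 was not past 2-fold between SH-SY5Y and SK-N-SH on the deposited log2 values or with the trend removed, leaving 0 mitotic members. In IMR5-75 against IMR32, 4 S phase members in place of 7 were past 2-fold lower with the trend removed. The count of all genes called with MYCN, 641, was 3183 by DESeq2, 341 by limma, 1274 over 14 lines, 0 with the subclones in place of their parents, 1442 without the 2 farthest lines, 132 without GI-ME-N and Lan-6, and 0 to 1513 on leaving out 1 line. For CDKN1A and TERT, 0 by edgeR became 1028 and 355 by DESeq2, 2 and 3 with no filter, and 1 and 1 over 14 lines. The median S phase and mitotic slopes on MYCN became 0.15 and 0.11 without GI-ME-N and Lan-6, against -0.05 and -0.06, with 15 of 16 and 15 of 26 positive. The cause of these shifts was not tested. The alternative without GI-ME-N and Lan-6 was chosen after seeing the data. No paired analysis was possible because the labels give 1 group with 1 library per line. At these depths counting error is small beside the larger differences described. It is not small where a level lies close to its median, as for CDC20 in SK-N-DZ (63.8 against 64.3 CPM). The number of lines and the lack of replicates limit the comparisons.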
